A study of Mus musculus with 6 samples.

Results

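The matrix metalloproteinases (MMPs) and the tissue inhibitors of metalloproteinases (TIMPs) described here were 10 genes, chosen by their symbols among the 54525 gene rows of the count files. They were 6 MMPs (*Mmp2*, *Mmp3*, *Mmp9*, *Mmp10*, *Mmp11*, *Mmp14*) and all 4 TIMPs (*Timp1* to *Timp4*). RNA was sequenced from C2C12 cells, an immortalised line of mouse skeletal muscle myoblasts that fuse into myotubes when growth factors are withdrawn. The cells of both groups were wild type, and the labels give no treatment. D0 was the myoblast stage (3 cultures) and D5 was the myotube stage after 5 days of differentiation (3 cultures). The comparison of D5 with D0 asks which MMP and TIMP transcripts differed between these stages. By the study's methods, growth medium held fetal bovine serum and differentiation medium a lower share of horse serum. Medium, days in culture and stage thus changed together and cannot be told apart. All cultures came from 1 cell line, and p-values measure only the spread between these cultures.

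MMPs are zinc-dependent endopeptidases that cut collagens, proteoglycans and other proteins outside the cell. They are made as inactive proenzymes, in which a cysteine of the propeptide blocks the zinc of the active site, and other proteases or chemical changes open this cysteine switch. TIMPs are small secreted proteins that occupy the active site of MMPs, and some also take part in MMP activation. In skeletal muscle this system is known for remodelling of the basal lamina during myoblast migration, fusion and regeneration.

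Of the 10 genes, 8 had enough reads to be tested and all 8 differed between the stages. *Mmp2*, *Mmp3*, *Mmp14*, *Timp2* and *Timp3* were higher in myotubes, and *Mmp10*, *Mmp11* and *Timp1* were lower. *Mmp2* changed most in level among the abundant genes and went from 2.81% ± 0.17 of the summed level of the 6 MMPs in myoblasts to 77.3% ± 0.50 in myotubes (SD, n = 3 each). Such shares were computed per length from all exonic bases and depend on the gene length used, which the SD does not cover. *Mmp9* and *Timp4* lay near the detection limit at both stages. Calls were common in this comparison, with 82.9% of the 16290 tested genes past an adjusted p of 0.05 in edgeR's quasi-likelihood test, 40.8% lower and 42.2% higher at D5, so the counts of 3 lower and 5 higher genes say little by themselves and the sizes of the changes are what follows.

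The libraries held 36555048 to 40895840 counts on genes at D0 and 25449759 to 25811300 at D5. A gene at 3 counts or fewer in a library was read as not detected, a limit that corresponded to 0.0713 to 0.122 CPM (counts scaled to a library of 1000000) and covers counting error only. All 8 tested myotube markers rose, with summed CPM from 60.2 to 74.6 at D0 and from 13371 to 14285 at D5, and all 6 proliferation markers fell, from 1812 to 1826 at D0 and from 93.5 to 103 at D5. These are levels in bulk RNA, in which a change in the number of cells of a type and a change in RNA per cell cannot be told apart.

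**Figure D1:**
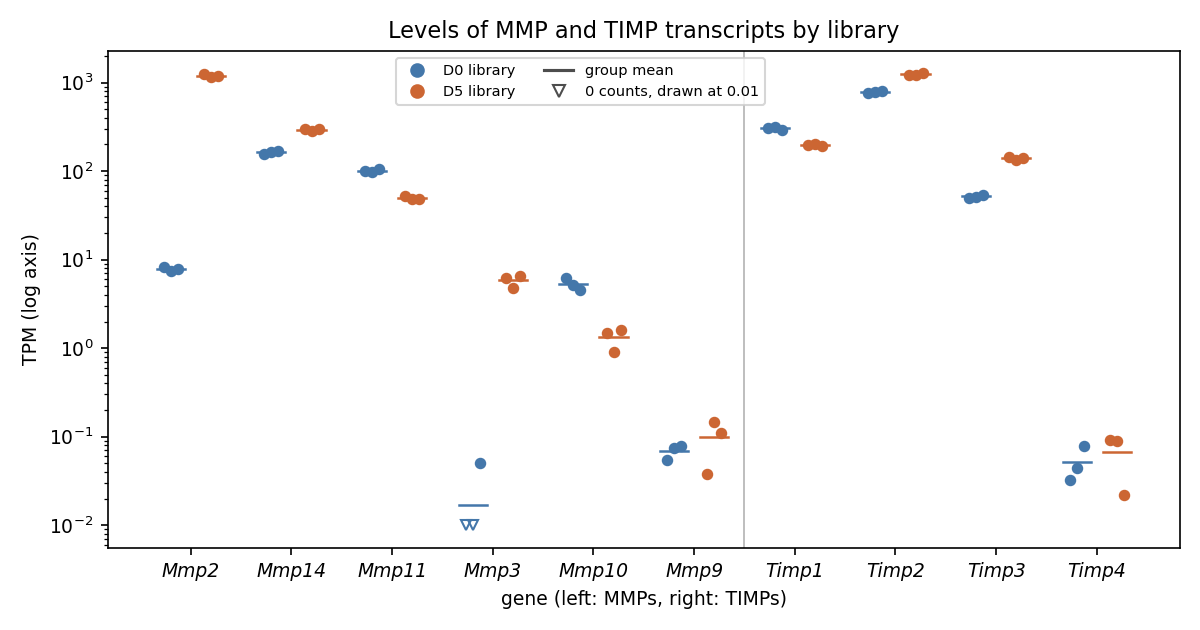
Level of each gene in TPM (transcripts scaled to 1000000 per library, log axis) in the 3 D0 libraries (blue) and the 3 D5 libraries (orange), with bars at the group means and open triangles for libraries with 0 counts. *Mmp2* moves from 7.80 to 1197 TPM and reaches the level of *Timp2* (1237 TPM at D5), while the D0 and D5 points of *Mmp9* and of *Timp4* overlap.

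*Mmp2* encodes gelatinase A, which degrades type IV collagen of the basal lamina and denatured collagen. The gene lies on the plus strand at chr8:92827291-92853420 (GRCm38) and shares no exonic base with another gene. Reads counted on it were 289, 286 and 288 at D0 and 31673, 29788 and 30363 at D5. Every D5 library was therefore far above every D0 library, although the D5 libraries were smaller. In CPM the level was 7.22 ± 0.46 at D0 and 1229 ± 27.4 at D5 (SD, n = 3 each), 170-fold higher, with a log2 fold change of 7.41 (SE 0.049, adjusted p = 4.96e-40). By TPM, which corrects for length, *Mmp2* stood at rank 9456 of the 25489 annotated genes with a count at D0 and at rank 68 of 25333 at D5. The change lay between 6.73 and 7.45 on the log2 scale under all alternative fits and with any 1 library left out.

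*Mmp9* encodes gelatinase B, the other gelatinase and a known product of leukocytes and of activated muscle precursor cells. It lies at chr2:164940780-164955850 on the plus strand. Its counts were 2, 3 and 3 at D0 and 1, 4 and 3 at D5. The values overlapped, and the gene was left out of the test for low counts, so no difference was detectable at this depth. The 2 gelatinases thus stood at opposite ends of the MMP levels in myotubes, with *Mmp2* at 1156 to 1256 TPM and *Mmp9* at 0.0378 to 0.148 TPM.

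*Mmp14* encodes MT1-MMP, a membrane-anchored collagenase that is also the main activator of pro-MMP2 at the cell surface. It lies at chr14:54431612-54445364 on the plus strand. Counts were 9847, 11312 and 10980 at D0 and 13240, 12966 and 13598 at D5. The counts of the smaller D5 libraries already exceeded those of every D0 library. In CPM *Mmp14* rose from 268 ± 4.95 to 533 ± 11.5 (SD, n = 3 each), and the log2 fold change was 0.99 (SE 0.032, adjusted p = 1.41e-22). It was the leading of the 6 MMPs in myoblasts, at 59.0% ± 1.04 of the summed MMP level, and fell to 19.0% ± 0.53 of that sum in myotubes although its own level was higher there. Both shares depend on the gene length used. With the longest transcript *Mmp14* stood at 238 TPM at D0 and 432 TPM at D5, against 164 and 293 TPM with all exonic bases. For *Mmp2* at D5 the values were 1048 and 1197 TPM.

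*Mmp3* and *Mmp10* encode stromelysin-1 and stromelysin-2, close relatives that cut proteoglycans, laminin and fibronectin and can activate other pro-MMPs. They lie on the plus strand of chromosome 9, *Mmp3* at chr9:7445822-7455975 and *Mmp10* at chr9:7502352-7510240, with 46.4 kb between them. The longest stretch of transcript the 2 genes shared without a mismatch was 104 bases in the coding sequence of exons 2 and 3. It is printed because it holds the codons of the cysteine switch, in capitals, and because reads that fall inside it cannot be assigned to 1 of the 2 genes. In *Mmp3* it spans chr9:7447092-7447285 and in *Mmp10* chr9:7503305-7503498, an intron included.
Mmp3 and Mmp10: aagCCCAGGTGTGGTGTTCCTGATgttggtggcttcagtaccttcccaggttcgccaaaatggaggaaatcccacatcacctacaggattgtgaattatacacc

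Of all 50-base stretches, 7.99% in *Mmp3* and 8.37% in *Mmp10* occurred in the other gene, so most of each transcript could tell them apart. *Mmp3* had 0, 0 and 1 counts at D0 and 84, 66 and 90 at D5. *Mmp10* had 112, 102 and 86 counts at D0 and 19, 12 and 21 at D5. The groups did not overlap for either gene, and the 2 stromelysins moved in opposite directions. The reads of *Mmp3*, 1 in all D0 libraries and 240 in all D5 libraries, gave a ratio of 385 after scaling, with an exact 95% interval of 68.5 to 15274 that covers counting error only. Its adjusted p was 4.55e-17, and its fitted log2 fold change of 8.04 rests on that single D0 read, reaching 9.63 without D0 replicate 3. *Mmp10* fell from 2.52 ± 0.43 to 0.695 ± 0.19 CPM (SD, n = 3 each), and the log2 fold change was -1.84 (SE 0.22, adjusted p = 7.76e-09). At D5 the *Mmp3* level was 4.10 to 5.26 times that of *Mmp10* in TPM. At D0, with *Mmp3* set to 3 counts in each library, the ratio was 0.0256 to 0.0334, and the exact two-sided permutation p of the difference was 0.1, the smallest that 3 against 3 libraries can give.

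The bases before the RefSeq start of each stromelysin gene (120 bases, GRCm38.p6, plus strand, 5′ to 3′) are printed with AP-1 motif and TATA box in capitals. Whether either motif had a part in the changes was not tested. AP-1, the Fos and Jun dimer, is a known regulator of stromelysin genes.
Mmp3 (chr9:7445702-7445821): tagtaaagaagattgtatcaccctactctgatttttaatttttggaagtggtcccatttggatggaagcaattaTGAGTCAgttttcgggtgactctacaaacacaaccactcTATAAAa
Mmp10 (chr9:7502222-7502341): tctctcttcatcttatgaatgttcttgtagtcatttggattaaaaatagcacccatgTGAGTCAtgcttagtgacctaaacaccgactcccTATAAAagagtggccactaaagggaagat

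RefSeq promoters (250 bases before to 50 after the start) were listed for 8 of the 10 genes, *Mmp2* and *Mmp9* excepted. Only the 250 bases before the start were searched, in these genes and in all promoters listed. RefSeq starts can differ from the ends of the gene spans given here, and those of *Mmp11*, *Timp2* and *Timp3* lay inside the spans. With both strands read, the AP-1 motif TGANTCA was found in *Mmp3* (first base at -46 from the start) and *Mmp10* (-63) and in no other of the 8, against 6.75% of the 32851 promoters listed. The TATA box TATAAA was found in the same genes, at -7 and -29, against 12.37% of promoters. The GC box GGGCGG lay in the promoters of *Mmp11*, *Mmp14*, *Timp1*, *Timp2* and *Timp3*, against 32.74% of promoters. The motif CAGCTG, an E-box that MyoD and myogenin bind, lay in *Timp2* (-188) and *Timp4* (-104), against 13.0% of promoters. A motif match describes letters in this window and is not a measured binding site.

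*Mmp3* and *Mmp10* belong to a cluster of 10 MMP genes that spans 427 kb of chromosome 9. In that cluster 5 genes had 3 counts or fewer in every library and 4 were tested. The macrophage elastase gene *Mmp12* (20, 37 and 31 counts at D0, 55, 34 and 44 at D5) and the collagenase-3 gene *Mmp13* (2, 0 and 3 counts at D0, 24, 15 and 21 at D5), named here as tested neighbours after their values were seen, were both higher at D5, with log2 fold changes of 1.28 (SE 0.23) and 4.15 (SE 0.49) and adjusted p of 8.76e-06 and 5.44e-09. The call of *Mmp12* was lost with spike-in scaling. *Mmp10* was thus the one tested gene of the cluster that fell.

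**Figure D2:**
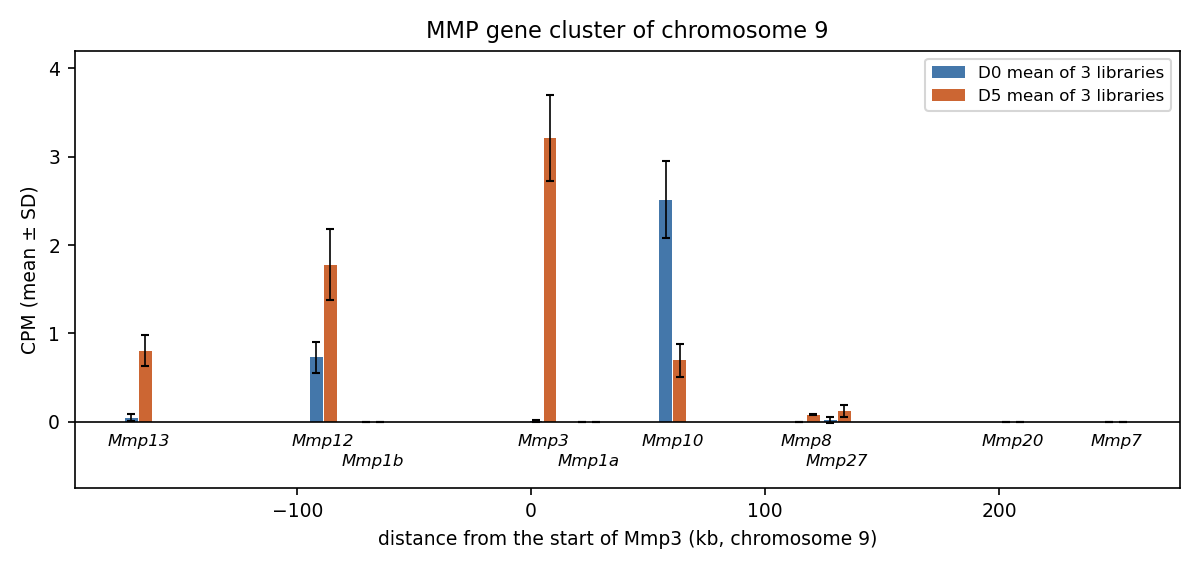
CPM (mean ± SD of 3 libraries) at D0 (blue) and D5 (orange) of the 10 MMP genes of the chromosome 9 cluster, placed by distance from the start of *Mmp3* in kb. *Mmp10* is the gene with the taller D0 bar (2.52 against 0.695 CPM), and *Mmp3*, *Mmp12* and *Mmp13* have the taller D5 bar.

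*Mmp11* encodes stromelysin-3, which unlike most secreted MMPs is activated inside the cell by furin. It lies at chr10:75923222-75936496 on the minus strand and shares 155 exonic bases (5.58%) with *Chchd10* on the opposite strand. How reads in these bases were assigned is not known. Counts were 2922, 3121 and 3168 at D0 and 1098, 1021 and 1031 at D5. The groups were far apart, also after scaling, where *Mmp11* fell from 76.9 ± 2.39 to 42.2 ± 1.31 CPM (SD, n = 3 each), and the log2 fold change was -0.87 (SE 0.042, adjusted p = 3.95e-18). Its share of the summed MMP level, which depends on the gene length used, dropped from 36.3% ± 0.72 to 3.22% ± 0.05.

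Among the inhibitors, *Timp2* was the most abundant at both stages. TIMP2 inhibits MMPs and also bridges MT1-MMP and pro-MMP2, so that a moderate amount of it serves pro-MMP2 activation. The gene lies at chr11:118301069-118355740 on the minus strand. Counts were 31348, 35187 and 33806 at D0 and 35810, 36051 and 37805 at D5. The raw counts of the groups did not overlap but lay close, and the scaled values lay well apart, at 837 ± 1.51 CPM at D0 and 1468 ± 47.2 at D5 (SD, n = 3 each). The log2 fold change was 0.81 (SE 0.033, adjusted p = 4.37e-20), but 0.13 on unscaled counts (adjusted p = 0.058), so the size of this rise rests on the scaling between libraries.

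*Timp3* encodes the TIMP that binds to the extracellular matrix and also inhibits ADAM and ADAMTS proteases. It lies at chr10:86300372-86349506 on the plus strand, inside *Syn3*, a synapsin gene on the minus strand with which it shares 1733 exonic bases (21.3% of its own). Counts were 4289, 4767 and 4808 at D0 and 8688, 8387 and 8743 at D5. Each D5 library had more reads than any D0 library, and the level rose from 116 ± 3.20 to 346 ± 5.54 CPM (SD, n = 3 each), and the log2 fold change was 1.58 (SE 0.033, adjusted p = 1.88e-27). *Syn3* itself had 21 to 42 counts at D0 and 6 to 11 at D5, which is 0.490% to 0.881% and 0.0691% to 0.126% of the *Timp3* counts. How reads in the shared bases were assigned is not known. These counts therefore do not show whether *Timp3* reads were lost there, which would lower its level in TPM.

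*Timp1*, an inhibitor of most secreted MMPs that also acts as a growth factor, lies at chrX:20870166-20874735 on the plus strand, within *Syn1*, with which it shares no exonic base. Counts were 2852, 3250 and 2822 at D0 and 1305, 1376 and 1311 at D5. All D5 values were below all D0 values, and the level fell from 74.4 ± 3.87 to 53.5 ± 2.06 CPM (SD, n = 3 each), and the log2 fold change was -0.48 (SE 0.043, adjusted p = 2.02e-11). *Syn1* also fell, by 0.38 on the log2 scale (SE 0.068, adjusted p = 6.70e-06), a call that was lost with spike-in scaling, and had 19.3% to 23.1% as many counts as *Timp1* in a library. *Timp1* was thus the one tested TIMP that fell.

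*Timp4*, a TIMP best known from heart and other striated muscle, lies at chr6:115241892-115252205 on the minus strand within *Syn2*. Counts were 2, 3 and 5 at D0 and 4, 4 and 1 at D5. The values overlapped near the detection limit, the gene was not tested, and no difference was detectable. *Syn2*, which shares 90 exonic bases (1.53%) with it on the opposite strand, had 30, 32 and 16 counts at D0 and 73, 64 and 88 at D5.

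**Figure D3:**
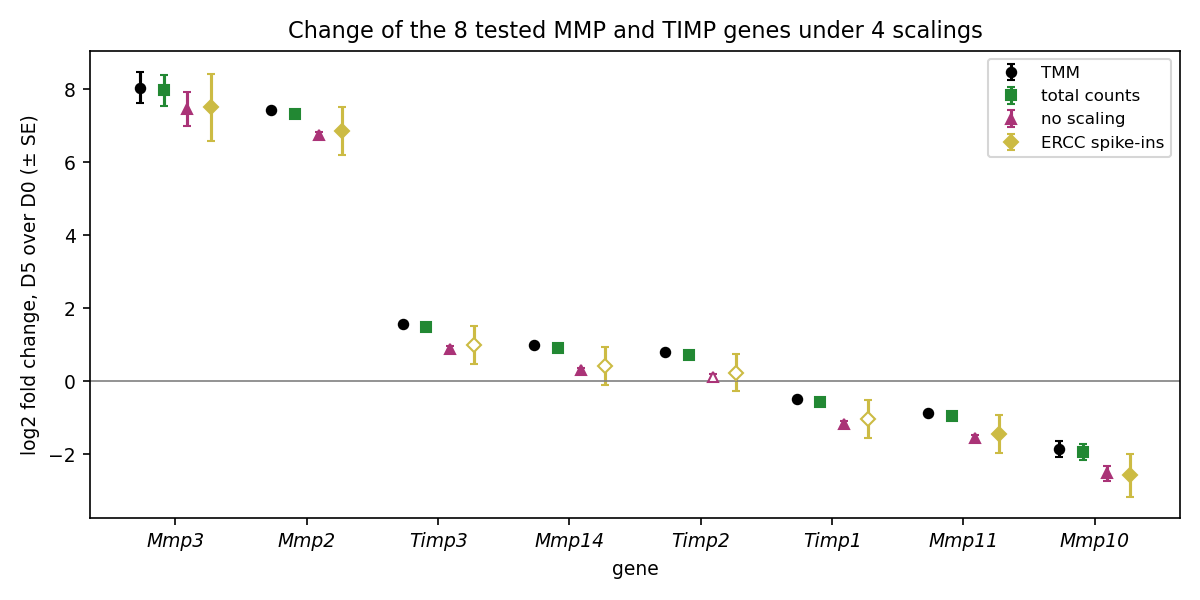
Log2 fold change of D5 over D0 (± SE) for the 8 tested genes under TMM factors, total counts, no scaling and spike-in scaling, with open symbols where the adjusted p was not under 0.05. *Mmp3* and *Mmp2* lie above 6 under each scaling, and no gene changes side of 0.

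None of the 8 genes changed sign under any of the scalings tried, while several calls did. The median log2 fold change of all tested genes was 0.0022 with TMM factors, -0.68 without scaling and -0.58 with scaling on the ERCC spike-ins, synthetic RNAs added to each sample. The spike-in share itself ranged from 0.720% to 2.09% of counts among the D5 libraries. With spike-in scaling *Mmp14* (0.42, adjusted p = 0.55), *Timp1* (-1.02, adjusted p = 0.12), *Timp2* (0.24, adjusted p = 0.74) and *Timp3* (1.00, adjusted p = 0.12) no longer passed, and *Mmp2*, *Mmp3*, *Mmp10* and *Mmp11* did. D0 and D5 libraries did not overlap in CPM for all 8 genes (3 lower, 5 higher), against 83.3% of all genes tested, 41.1% lower and 42.2% higher.

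Levels of different genes were compared in TPM. At D0 the order was *Timp2* (783 ± 13.5), *Timp1* (305 ± 13.4), *Mmp14* (164 ± 5.59), *Mmp11* (101 ± 3.49), *Timp3* (51.8 ± 2.06), *Mmp2* (7.80 ± 0.41) and *Mmp10* (5.31 ± 0.83), in TPM ± SD with n = 3, and none of these neighbours overlapped in their libraries. *Mmp9*, *Timp4* and *Mmp3* followed below 0.1 TPM in every library and overlapped. At D5 *Timp2* (1237 ± 31.4) and *Mmp2* (1197 ± 52.2) overlapped at the top, followed without overlap by *Mmp14* (293 ± 7.79), *Timp1* (197 ± 4.71), *Timp3* (139 ± 4.11), *Mmp11* (49.8 ± 2.60), *Mmp3* (5.86 ± 0.94) and *Mmp10* (1.33 ± 0.37), with *Mmp9* and *Timp4* again last and overlapping. Some of this order depends on the length used per gene. With the longest transcript in place of all exonic bases, *Mmp14* (238 ± 8.00) and *Timp1* (242 ± 10.4) overlapped at D0, and *Timp3* (192 ± 5.23) stood above *Timp1* (159 ± 3.99) at D5.

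The summed level of the 6 MMPs rose from 278 ± 7.05 to 1548 ± 60.4 TPM, 5.57-fold, while that of the 4 TIMPs rose from 1140 ± 13.8 to 1573 ± 29.3 TPM, 1.38-fold (SD, n = 3 each). The TIMP sum therefore exceeded the sum of these 6 MMPs 4.13-, 4.19- and 3.99-fold in the D0 libraries, and stood at 0.972, 1.04 and 1.05 times the MMP sum in the D5 libraries. The ratio was lower in all D5 libraries than in all D0 libraries, by 2.01 on the log2 scale, with an exact two-sided permutation p of 0.1, the smallest possible here. Such a ratio within a library does not depend on the scaling between libraries, but it does depend on gene length. With the longest transcript it was 2.78 ± 0.07 at D0 and 0.906 ± 0.03 at D5, so the side of 1 on which the D5 value lies is not settled. With all 23 MMP genes in the sum, a choice added after the data were seen, the ratio was 2.77 ± 0.08 at D0 and 0.965 ± 0.04 at D5, since *Mmp15* alone stood at 125 TPM at D0 and 53.0 TPM at D5. It is a ratio of transcripts and not of protein or activity.

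**Figure D4:**
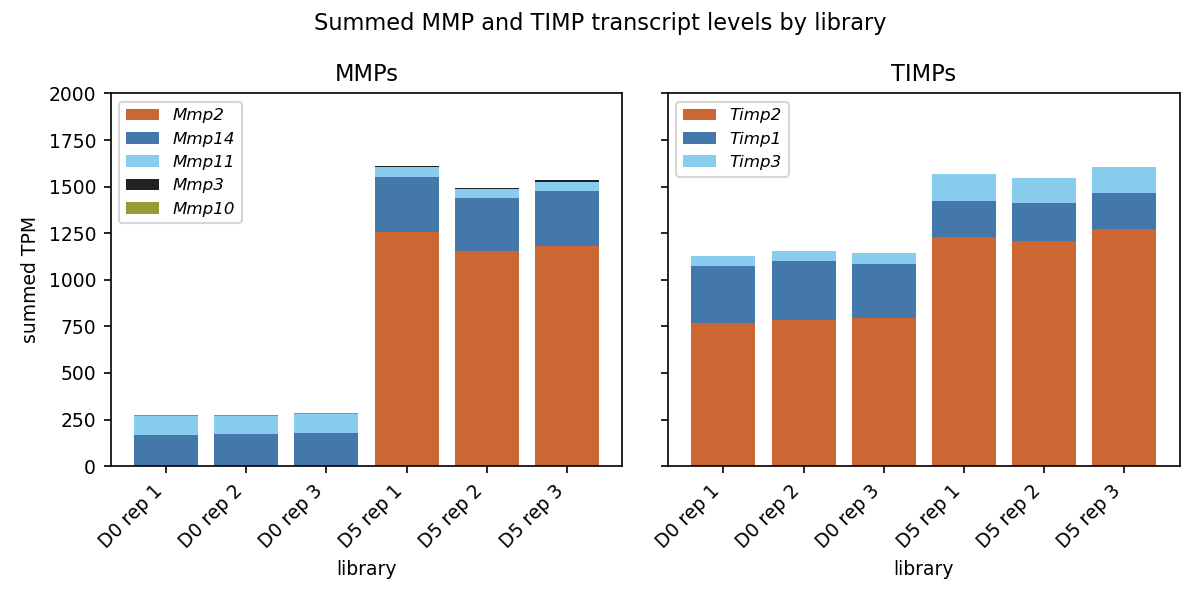
Summed TPM of the MMPs (left) and the TIMPs (right) in each library, stacked by gene on a linear axis from 0 (*Mmp9* and *Timp4* are too low to be seen and are not drawn). *Mmp2* fills 77.3% of the D5 MMP bars on average and 2.81% of the D0 bars, and *Timp2* is the largest segment of every TIMP bar. TPM is from all exonic bases of a gene, and the shares depend on that length.

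The 3 genes of the pro-MMP2 activation complex were followed by their ratios within libraries, whose change from D0 to D5 depends on neither the scaling nor the gene length, while their level depends on the length. The TPM ratio of *Mmp14* to *Timp2* was 0.205, 0.210 and 0.212 at D0 and 0.242, 0.235 and 0.235 at D5. Activator and inhibitor thus kept nearly the same proportion, 1.13-fold higher at D5, with no overlap of the libraries. Against the same 2 genes, *Mmp2* moved by much more: its ratio to *Timp2* went from 0.00939 to 0.0107 at D0 to between 0.928 and 1.02 at D5, and its ratio to *Mmp14* from 0.0447 to 0.0519 to between 3.95 and 4.23. Among the inhibitors the ratio of *Timp1* to *Timp2* fell from 0.390 to 0.160 and that of *Timp3* to *Timp2* rose from 0.0661 to 0.113 (geometric means). With the length of the longest transcript the geometric mean of *Mmp14* to *Timp2* was 0.367 at D0 and 0.416 at D5, that of *Mmp2* to *Mmp14* was 0.0283 and 2.43, and that of *Timp3* to *Timp2* was 0.109 and 0.185. In the 7 ratios compared, the family sums included, the D0 and D5 libraries did not overlap, and each exact two-sided permutation p was 0.1, also after Benjamini-Hochberg adjustment. A further ratio, *Mmp9* to *Timp1*, was not given because *Mmp9* was near the detection limit.

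The GC box of *Mmp14* and *Timp2* lay also in *Mmp11* and *Timp1*, which fell, in *Timp3*, which rose, and in 32.74% of promoters. Its part in any change was not tested. The RefSeq start used for *Timp2* lies inside the gene span given above, so the bases printed for it fall within the annotated gene. The bases before the start of *Mmp14* and *Timp2* are printed with their GC boxes in capitals (60 bases, RefSeq, GRCm38.p6, 5′ to 3′ on the strand of the gene).
Mmp14 (chr14:54431538-54431597, plus strand): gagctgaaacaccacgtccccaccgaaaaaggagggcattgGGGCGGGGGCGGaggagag
Timp2 (chr11:118355412-118355471, minus strand): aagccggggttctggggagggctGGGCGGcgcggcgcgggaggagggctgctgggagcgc

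Of the 17 other MMP genes 7 were tested, of which 6 were higher at D5 and 1 was lower (median log2 fold change 2.28). Over all genes tested the median was 0.0022, with 42.2% called higher and 40.8% lower. *Mmp16*, the membrane-type MT3-MMP, had 0, 6 and 5 counts at D0 and 275, 228 and 253 at D5, a log2 fold change of 6.73 (SE 0.23, adjusted p = 8.34e-22). *Mmp15* (MT2-MMP), another membrane-type gene, went the other way, from 186 ± 3.52 to 87.1 ± 4.63 CPM (log2 fold change -1.09, adjusted p = 5.24e-22). *Mmp19* rose from 3.51 ± 0.44 to 17.7 ± 1.64 CPM (log2 fold change 2.33) and *Mmp28*, epilysin, from 2.94 ± 0.36 to 7.40 ± 0.72 (log2 fold change 1.33), a call that was lost with spike-in scaling. Despite the count of rises, the summed CPM of these 17 genes was lower at D5 (123 to 131) than at D0 (191 to 199), since *Mmp15* held most of it.

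Among 12 genes of other MMP inhibitors and MMP partners, 7 were tested, of which 4 rose and 2 fell (median log2 fold change 0.71). By comparison, 42.2% of all genes tested were called higher and 40.8% lower. The largest rise was that of *Cav1*, caveolin-1 of the plasma membrane, from 11.0 ± 0.61 to 107 ± 2.58 CPM (log2 fold change 3.27, adjusted p = 1.37e-31). *Spock2*, a testican proteoglycan, rose by a log2 fold change of 2.94. *Lrp1*, the endocytic receptor that clears MMPs and TIMPs, rose from 689 ± 8.89 to 2496 ± 50.2 CPM (log2 fold change 1.86, adjusted p = 2.13e-29). *Reck*, a membrane-anchored inhibitor of several MMPs, rose from 4.94 ± 0.39 to 8.04 ± 1.18 CPM (log2 fold change 0.71, adjusted p = 4.87e-07), but by 0.03 on unscaled counts (adjusted p = 0.83), and its call was also lost with spike-in scaling. *Furin*, the protease that activates MMP11 and membrane-type MMPs, fell from 187 ± 3.39 to 146 ± 8.17 CPM (log2 fold change -0.36, adjusted p = 2.72e-10; call lost with spike-in scaling). *Bsg*, the MMP inducer basigin, was at 477 ± 11.1 and 491 ± 7.39 CPM (log2 fold change 0.04, adjusted p = 0.23), a direction that turned with total counts, without scaling, with spike-in scaling and without the filter.

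Genes listed with the plasminogen system, whose protease plasmin activates several pro-MMPs, mostly fell. Of 11 genes 9 were tested, of which 8 fell and 1 rose (median log2 fold change -1.84). Over all genes tested 40.8% were called lower and 42.2% higher. The list holds activators as well as inhibitors. It also counts *Serpinh1*, a collagen chaperone gene named here outside the naming rule, among those that fell (-1.14). *Plau*, the urokinase plasminogen activator, fell from 197 ± 2.75 to 32.5 ± 1.41 CPM (log2 fold change -2.60, adjusted p = 3.77e-31). Its receptor *Plaur* fell from 59.4 ± 1.11 to 1.85 ± 0.40 CPM (log2 fold change -5.00, adjusted p = 1.77e-30). The one gene that rose was *Serpine2*, a serine protease inhibitor, from 0.885 ± 0.19 to 49.1 ± 2.72 CPM (log2 fold change 5.78, adjusted p = 9.73e-31). *Plau*, *Plaur* and *Serpine2* kept these calls under each scaling.

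**Figure D5:**
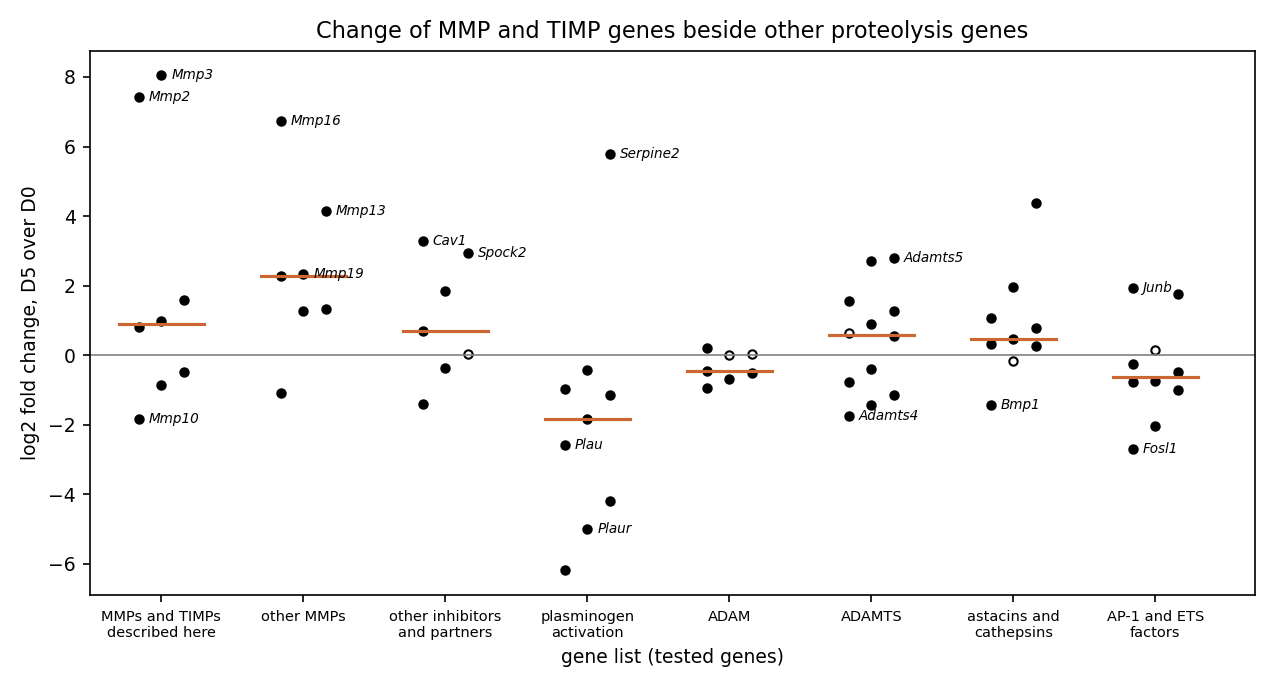
Log2 fold change of D5 over D0 of each tested gene (1 point a gene, filled where the adjusted p was under 0.05) in 8 gene lists, with orange bars at the medians. The MMPs and TIMPs described here spread from -1.84 (*Mmp10*) to 8.04 (*Mmp3*), and the plasminogen activation list has the lowest median (-1.84).

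Markers of other cell types were read beside these results, since MMPs and TIMPs are also products of stromal and immune cells. Of 6 fibroblast markers 5 were tested and all 5 rose, where 42.2% of all genes tested were called higher. The 6 summed to 556 to 580 CPM at D0 and 4102 to 4288 at D5, most of it from *Col3a1* (547 ± 12.4 and 3727 ± 79.4 CPM). Among them *Dcn* (decorin) had 12, 13 and 20 counts at D0 and 6636, 5646 and 5812 at D5, *Lum* (lumican) had 0 in every D0 library and was at least 132-fold higher at D5 against 3 counts per library, and *Col1a1* rose with a log2 fold change of 3.51, while *Thy1* had at most 1 count in any library. These genes rose along with *Mmp2*, *Mmp14*, *Timp2* and *Timp3*, and their part in the result was not tested. Of the 6 macrophage markers 2 were tested, of which *Cd68* fell (123 to 130 counts at D0, 46 to 63 at D5) and *Cd14* was at 175 to 208 and 106 to 134 counts (log2 fold change -0.02, adjusted p = 0.89). Among the other 4, *Itgam* had 0 counts in every D0 library and 10, 13 and 5 at D5, at least 4.99-fold higher against 3 counts per library, *Csf1r* had at most 5 counts, and *Ptprc* and *Adgre1* had at most 1 count in any library. The list summed to 8.06 to 8.14 CPM at D0 and 6.96 to 7.99 at D5. Endothelial markers summed to 3.41 to 3.90 CPM at D0 and 1.26 to 1.49 at D5, with 2 lower and 1 higher of 3 tested, and the 4 adipocyte markers to at most 0.0405 CPM in any library, with none tested. Of the 6 myoblast markers 4 fell, among them the transcription factor genes *Myf5* (log2 fold change -2.32) and *Pax7* (-1.71). The 2 that rose were *Itga7* (1.08) and *Des* (0.72). Summed CPM of these 6 markers was higher at D5 (5128 to 5199) than at D0 (3349 to 3468).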

How the data were processed

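RNA-seq libraries of C2C12 cells (3 at D0, 3 at D5) were analysed. The authors aligned reads to GRCm38 and counted them on genes with featureCounts, and the deposited counts are whole numbers without normalization. The labels and the study's methods name different aligners. The annotation release, the strand setting and how multiply aligned reads were handled are not given in the sources used here. From these counts, spike-in and unnamed rows removed, TMM factors, CPM and log2 fold changes came from edgeR 4.0.16 (R 4.3.3). TPM was computed separately from all exonic bases in the GENCODE annotation of GRCm38. It covers the 53308 of 54525 gene rows found in that annotation, and ranks by TPM are among these rows. Genes were kept by filterByExpr and tested by the quasi-likelihood test, with Benjamini-Hochberg adjustment over all 16290 genes and a threshold of 0.05. The SE of a log2 fold change was its size over the square root of F. Ratios were compared by exact permutation. The fit was tested on simulated data. Of the other lists, up to 4 called genes with at least 100 counts in the mean of a group were named, by size of change, besides *Reck*, *Bsg*, *Furin*, *Plau*, *Plaur* and the synapsins. A further gene of that rule is not reported here. Genes and lists were chosen with earlier results of these data known. Between replicates the chi-square of counts over its degrees of freedom was 2.16 to 3.45, so no library was a copy. Alternatives were DESeq2 1.42.0, other scalings, other filters, a replicate block, a robust prior and each library left out.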

Additional observations from a re-analysis of the deposited data

How the results depend on the processing

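Under 9 other settings and 6 fits without 1 library, no tested gene of the 8 changed direction. Spike-in scaling had the largest effect: 5560 genes were called in place of 13510, 2 members were called higher in place of 5, 5 members were without overlap in place of 8, and 14 genes of the other lists were called higher in place of 28. That scaling carries the spread of the spike-in share between libraries. It also left *Mmp14*, *Timp1*, *Timp2* and *Timp3* short of the threshold, as the absence of scaling did *Timp2*. Of the genes called, 49.2% were lower at D5 with TMM factors, 76.6% without scaling and 67.4% with spike-in scaling. With at least 10 counts in every library *Mmp3* could not be tested. The replicate block called 13558 genes, with 3 members lower and 5 higher, as without it. Libraries with the same number had deviations correlated at 0.0275, 0.104 and 0.0469, so the numbers were not taken to pair cultures, although each library correlated best with its own number. Without 1 library, 13236 to 13599 genes were called. DESeq2 gave adjusted p of 0.64 for *Mmp9* and 0.70 for *Timp4*. With all MMP genes in the sum, added after the data were seen, the TIMP to MMP ratio fell by 1.52 on the log2 scale. Depth limits *Mmp3* at D0 and *Mmp9* and *Timp4* at both stages.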

Other observations

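For the counts of calls in this section, the share over all genes tested was 40.8% lower and 42.2% higher at D5. Of 10 ADAM genes, membrane proteases that shed surface proteins, 7 were tested, of which 4 fell and 1 rose (median log2 fold change -0.46). The 4 that fell were *Adam15* (-0.94), *Adam10* (-0.70), *Adam8* (-0.51) and *Adam9* (-0.46), and the calls of *Adam8* and *Adam9* were lost with spike-in scaling. Of 18 ADAMTS genes, secreted proteases of proteoglycans and procollagens, 12 were tested, of which 6 rose and 5 fell (median 0.59). The aggrecanase gene *Adamts5* rose from 31.4 ± 2.23 to 216 ± 2.74 CPM (log2 fold change 2.78, adjusted p = 2.09e-31) and *Adamts2*, a procollagen N-proteinase, by a log2 fold change of 2.70. The other main aggrecanase, *Adamts4*, fell from 91.1 ± 1.64 to 27.2 ± 1.01 CPM (log2 fold change -1.74, adjusted p = 1.07e-25), and *Adamts6* by 1.45 on the log2 scale. The adjusted p-values are those of edgeR's quasi-likelihood test over all genes.

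Of 13 astacin and cathepsin genes 9 were tested, of which 7 rose and 1 fell (median log2 fold change 0.45). Here too the share over all genes tested was 40.8% lower and 42.2% higher. The one that fell was *Bmp1*, a procollagen C-proteinase (-1.45), and the lysosomal proteases *Ctsh* (1.97), *Ctsl* (1.05) and *Ctsd* (0.78) were among those that rose, with the calls of *Ctsl* and *Ctsd* lost with spike-in scaling and that of *Ctsd* also without scaling. Of 10 AP-1 and ETS factor genes 7 fell and 2 rose (median -0.62), with *Fosl1* at -2.70, *Atf3* at -2.05, *Jun* at -1.01 and *Junb* at 1.93 on the log2 scale. The other that rose was *Fos* (1.75), named here outside the naming rule, with 39 to 55 counts at D0 and 91 to 101 at D5.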
